A study of Mus musculus with 6 samples.

Results

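The genes described here build the earliest autophagosome, and they were chosen by their known function, with earlier results of these data known. They are Ulk1, Ulk2, Atg13, Rb1cc1 and Atg101 of the ULK1 kinase complex, Atg9a, Atg2a and Atg2b, whose proteins supply membrane and lipid to the growing sac, and Wipi1 and Wipi2, whose proteins read the lipid made on it. All 10 were among the 16579 genes of the deposited table and all 10 were tested. RNA was sequenced from bone marrow cells labelled as megakaryocytes (MKs), sorted from mice aged 3 months, with 3 libraries labelled Becn1f/f and 3 labelled Becn1f/f;Pf4-iCre. Both groups carried floxed Becn1, and only the second carried the iCre recombinase, which the Pf4 promoter drives in the megakaryocytic lineage, so that loss of Becn1 and presence of the recombinase cannot be told apart. The comparison asks whether these 10 genes, some acting before Becn1 and some after it, changed at the RNA level in the second genotype.

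Autophagy encloses cytoplasm in a double membrane and delivers it to the lysosome. The ULK1 complex receives the signals of nutrient supply from mTORC1 and AMPK and starts the process, ATG9A vesicles bring the seed membrane, and ATG2 proteins carry lipid from the endoplasmic reticulum into it. Becn1, a subunit of the class III PI3-kinase, helps to make the phosphatidylinositol 3-phosphate to which WIPI proteins bind, so that the WIPI proteins act after Becn1 and the ULK1 complex acts before it. Much of the control of the ULK1 complex is known to act on the proteins by phosphorylation, which RNA does not measure.

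The libraries held between 16467560 and 17156728 counts. Becn1 itself reached a normalized read count (CPM, the count scaled to the effective library size) of 127.5, 108.8 and 118.7 in the Becn1f/f libraries and 106.4, 104.4 and 109.8 in the libraries labelled Becn1f/f;Pf4-iCre. The groups overlapped, and the log2 fold change of -0.15 (SE 0.12) did not pass the test (adjusted p = 0.94, edgeR). The gene-level value does not separate the floxed exons from the rest of the transcript and so does not check the deletion. Of the MK markers, Itga2b (the integrin subunit CD41) was present at 142.4 to 187.4 CPM, whereas Pf4 reached 2.08 to 6.73 CPM and Gp1ba 3.68 to 7.27 CPM. In the whole MK list only Gp6 and Mpig6b averaged under 1 CPM over the libraries, and in the macrophage list Mertk, Marco and Vsig4 did. The summed level of the 16 MK and platelet markers was 421 to 511 CPM in Becn1f/f and 426 to 488 CPM in the other group. Of the 14 tested, 10 were lower and 4 higher in the second group, and 1 had an unadjusted P under 0.05. This was Pf4, with 3.76, 6.73 and 4.12 CPM in Becn1f/f and 3.06, 2.11 and 2.08 CPM in the other group. Its log2 fold change of -1.01 (SE 0.29, adjusted p = 0.42, edgeR) was also beyond 1.5-fold, where 2.3% of all tested genes passed both limits. For the MK markers and those of other blood cells, the counts at an unadjusted P under 0.05 are to be read against 6.31% of all tested genes. The 13 neutrophil markers summed to 11664 to 16700 CPM against 9094 to 12248 CPM, with 5 of the 13 lower and none higher at an unadjusted P under 0.05. The 11 erythroid markers summed to 384 to 615 CPM against 294 to 380 CPM, with 8 of the 11 lower. The 14 macrophage markers summed to 808 to 864 CPM against 862 to 1042 CPM, with 3 of the 12 tested higher, and the 10 B cell markers summed to 169 to 290 CPM against 167 to 225 CPM, with 1 of the 10 lower. In CPM, which is not scaled for transcript length, the neutrophil markers thus summed to far more than the MK markers in every library. The macrophage markers also summed to more than the MK markers in every library. The markers thus support the MK label only in part, and the levels given are those of the sorted libraries, whatever cells they held. None of these markers had an adjusted p under 0.05 in edgeR. Pf4 and markers of other blood cells thus moved with the genotype label at the unadjusted threshold, and their part in the values of the autophagy genes was not tested. In bulk RNA, fewer cells of a type and less RNA per cell cannot be told apart.

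The 250 bases before the start of Ulk1 and Atg2a are shown because these were the members whose levels followed each other most closely over the libraries, as described below. The capitals mark the GC box GGGCGG or its reverse complement CCGCCC, a letter pattern known from the promoters of many widely expressed genes. Both are RefSeq sequences of GRCm38.p6, written 5′ to 3′ on the strand of the gene, with Ulk1 on the minus strand at chr5:110810082-110810331 and Atg2a on the plus strand at chr19:6241418-6241667.
Ulk1: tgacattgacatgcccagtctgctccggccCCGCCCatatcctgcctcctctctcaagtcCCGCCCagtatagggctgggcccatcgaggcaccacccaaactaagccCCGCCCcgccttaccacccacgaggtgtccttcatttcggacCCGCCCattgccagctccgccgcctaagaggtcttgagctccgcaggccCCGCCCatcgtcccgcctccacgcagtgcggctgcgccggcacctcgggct
Atg2a: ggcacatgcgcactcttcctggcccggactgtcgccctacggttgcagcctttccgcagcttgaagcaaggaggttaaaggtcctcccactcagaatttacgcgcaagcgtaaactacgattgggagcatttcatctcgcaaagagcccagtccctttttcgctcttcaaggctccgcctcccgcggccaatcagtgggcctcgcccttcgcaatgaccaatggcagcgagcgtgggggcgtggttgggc

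Ulk1 held 5 GC boxes in this window and Atg2a held none, so the members whose levels followed each other most closely over the libraries did not share this pattern. Over the 9 members with a promoter sequence (all but Rb1cc1), 5 held at least 1 GC box on either strand, against 35.4% of 27025 genes with promoters of the same length. There were 8 in Wipi1, 3 in Atg2b, 2 in Wipi2 and 1 in Ulk2. The GC content of the member windows ran from 46.4% in Atg13 to 72.8% in Ulk2, against a median of 52.4% over all promoters. Its part in these counts was not tested. The E-box CACGTG, the core of the sites bound by the TFEB family that is known to switch on autophagy and lysosome genes, was in 0 of the 9 members and in 6.86% of all these genes. The cyclic AMP response element TGACGTCA was also in 0 of the 9 members, and in 1.77% of all. These are matches of letters in a short window and describe no binding.

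All 10 genes were expressed in every library, at levels that differed several-fold between members. Levels between genes are given as FPKM, a read count scaled for transcript length and library size. Atg101, which encodes a small subunit that stabilizes Atg13 in the complex, was highest, with a mean of 41.8 FPKM over the 6 libraries (36.7 to 50.1) and above 86.1% of the genes in the table. Atg2a followed with 23.8 FPKM (15.8 to 33.9), then Atg9a with 22.6 FPKM (20.2 to 25.2), Wipi2 with 18.1 FPKM (16.6 to 19.6) and Ulk1 with 17.7 FPKM (12.5 to 23.7). Lower still were Atg13 with 15.0 FPKM (12.8 to 17.5), Rb1cc1 with 11.4 FPKM (9.15 to 13.9), Atg2b with 10.7 FPKM (9.22 to 12.0), Wipi1 with 9.69 FPKM (7.55 to 11.2) and Ulk2 with 7.84 FPKM (6.29 to 9.69). The median gene of the table had 5.70 FPKM, so that every member lay above it, Ulk2 at the 54.9th percentile. Per kilobase of the longest GENCODE transcript Wipi1 was lower still, at 4.35 CPM, and Ulk2 at 7.48 CPM was then no longer the lowest. At only 2 steps in this order by FPKM did the ranges of the neighbours over the libraries not overlap. These were the step from Atg101 to Atg2a and the step from Atg9a to Wipi2, where the higher gene was above the lower in 6 of 6 libraries. In the other 7 steps the ranges of the neighbours overlapped, and Atg2a was above Atg9a in only 2 of 6 libraries.

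**Figure D1:**
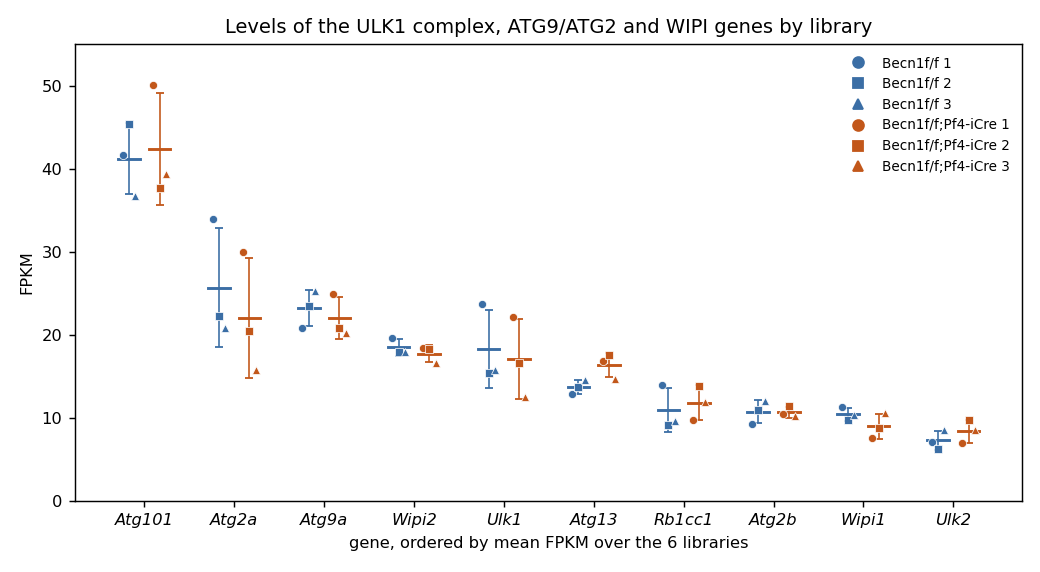
FPKM (linear axis) of each of the 10 genes in each of the 6 libraries, ordered by mean; horizontal bars are genotype means, vertical bars 1 SD of 3 libraries, and the point shape is the replicate number. Atg101 lies above the other 9 genes in all libraries, and for every gene except Atg13 the blue (Becn1f/f) and orange (Becn1f/f;Pf4-iCre) points overlap.

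Within the pairs of related genes, the same member led in every library. Ulk1, the kinase of the complex, exceeded its paralog Ulk2 by 3.34-, 2.44- and 1.84-fold in the Becn1f/f libraries and by 3.20-, 1.72- and 1.47-fold in the libraries labelled Becn1f/f;Pf4-iCre. Atg2a exceeded Atg2b by 3.67-, 2.04- and 1.73-fold in the first group and by 2.87-, 1.79- and 1.54-fold in the second. Both ratios were thus highest in replicate 1 of each genotype, and the genotypes overlapped. For the phosphoinositide-binding WIPI proteins the second paralog led, with Wipi2 at 1.57 to 2.43 times the FPKM of Wipi1. Wipi2 is the family member known to recruit the conjugation machinery that lipidates Atg8 proteins.

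The ratios did not differ between the genotypes beyond the spread of the libraries. On the log2 scale, Ulk1 over Ulk2 was 1.30 ± 0.43 (SD, n = 3) in Becn1f/f and 1.00 ± 0.59 (SD, n = 3) in the other group, a difference of -0.30 (exact permutation p = 0.50, two-sided). Atg2a over Atg2b was 1.23 ± 0.57 and 1.00 ± 0.47, a difference of -0.24 (exact permutation p = 0.60), and Wipi1 over Wipi2 was -0.83 ± 0.05 and -0.995 ± 0.32, a difference of -0.17 (exact permutation p = 0.40). Adjusted over the 3 ratios by the Benjamini-Hochberg method, each of these exact p-values was 0.60. With 3 libraries a group, the smallest p that this exact test can give is 0.10. Without Becn1f/f replicate 1 the difference of Atg2a over Atg2b was 0.084, of the opposite sign.

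**Figure D2:**
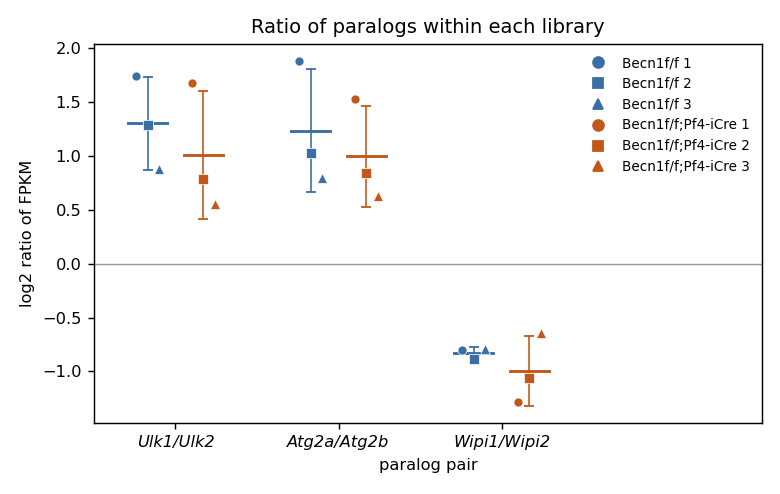
Log2 ratio of FPKM within each library for the 3 paralog pairs, with genotype means (horizontal bars) and 1 SD of 3 libraries (vertical bars); the grey line at 0 marks equal levels. Ulk1 and Atg2a lie above their paralogs and Wipi1 below its paralog in all 6 libraries, and the genotypes overlap in each pair.

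No member passed the test for a genotype difference. At a fold change of at least 1.5 with an unadjusted P under 0.05 in edgeR's quasi-likelihood test, 0 of the 10 genes were called, against 2.3% of the 12256 genes tested. At an adjusted p under 0.05 the count was also 0, against 0.0408% of all tested genes, and at an unadjusted P under 0.05 it was again 0, against 6.31% of all. With shares this small, 0 in a list of 10 genes says little. DESeq2 and limma-voom likewise called 0 of the 10 at each of these 3 thresholds. The shares given are those of edgeR, and at an adjusted p under 0.05 DESeq2 gave 71 of its 16400 genes against 5 of 12256 in edgeR. The adjusted p-values from edgeR lay between 0.82 and 0.99. Of the 10 log2 fold changes, 5 were positive and 5 negative, with a median of -0.0048 against -0.021 over all tested genes, and a median size of 0.11 against 0.13. The 95% interval lay within 1.5-fold in either direction (0.58 on the log2 scale) for 9 of the 10 genes, for Ulk1 only just, and for Atg2a it reached beyond. For 6 of the 10 genes (Ulk1, Atg101, Atg9a, Atg2a, Atg2b and Wipi2) the sign of the fold change turned when 1 library was left out.

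**Figure D3:**
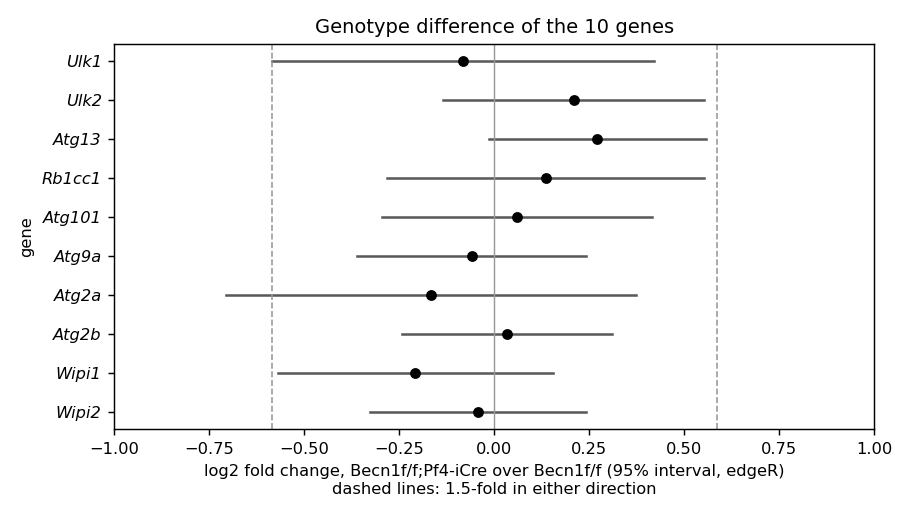
Log2 fold change of each gene between the libraries labelled Becn1f/f;Pf4-iCre and the Becn1f/f libraries (points) with its 95% interval from edgeR (lines); dashed lines mark 1.5-fold. Every interval includes 0, Atg13 with the least margin, and only that of Atg2a crosses a dashed line.

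Among the subunits of the kinase complex, Ulk1 (gene ID 22241) had 116.4, 73.4 and 72.8 CPM in Becn1f/f and 109.1, 79.1 and 59.6 CPM in the libraries labelled Becn1f/f;Pf4-iCre. Replicate 1 was the highest library in each group, and the groups overlapped. The means were 87.5 ± 25.0 and 82.6 ± 24.9 CPM (SD, n = 3 each). The log2 fold change was -0.08 (SE 0.23, 95% interval -0.58 to 0.42, adjusted p = 0.99, edgeR), and it became 0.18 without Becn1f/f replicate 1 and 0.11 without Becn1f/f;Pf4-iCre replicate 3. Ulk2 (gene ID 29869), the second kinase, had 40.1, 34.1 and 45.4 CPM against 39.2, 52.6 and 46.5 CPM. The highest Ulk2 value was in the second group and the lowest in the first, with overlap between them, and the log2 fold change was 0.21 (SE 0.16, adjusted p = 0.91, edgeR), or 0.10 to 0.32 with 1 library left out.

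Atg13 (gene ID 51897), the adaptor that ties the kinase to the rest of the complex, was the member with the clearest separation. Its normalized read count was 43.0, 43.8 and 45.8 CPM in Becn1f/f and 56.3, 56.1 and 47.5 CPM in the libraries labelled Becn1f/f;Pf4-iCre. The lowest value of the second group lay above the highest of the first, by a margin smaller than the spread within the second group. Atg13 was the 1 member of 10 whose groups did not overlap, and 10.6% of all tested genes did the same. The means were 44.2 ± 1.45 and 53.3 ± 5.06 CPM (SD, n = 3 each), and the log2 fold change was 0.27 (SE 0.13, 95% interval -0.01 to 0.56). This is 1.21-fold, under the 1.5-fold threshold, with an unadjusted P of 0.061 and an adjusted p of 0.82 in edgeR. With offsets for GC content and transcript length the log2 fold change was 0.32 and the unadjusted P fell to 0.0087, with an adjusted p of 0.40 in edgeR; without Becn1f/f;Pf4-iCre replicate 3 it was 0.35, with an unadjusted P of 0.042 and an adjusted p of 0.91. In other settings the unadjusted P rose, to 0.13 with the replicate block, 0.12 without Becn1f/f replicate 2 and 0.18 without Becn1f/f;Pf4-iCre replicate 2. Over all alternatives for Atg13 the adjusted p lay between 0.35 and 1.00.

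Rb1cc1 (gene ID 12421), the large scaffold also called FIP200, had 91.7, 57.5 and 59.7 CPM against 64.1, 89.0 and 76.2 CPM. The highest and the lowest library both belonged to Becn1f/f, whose replicate 1 stood well above its other libraries. The means were 69.6 ± 19.1 and 76.4 ± 12.4 CPM (SD, n = 3 each). The log2 fold change of Rb1cc1 was 0.13 (SE 0.19, 95% interval -0.28 to 0.55, adjusted p = 0.97, edgeR). Without Becn1f/f replicate 1 it was 0.39, with an unadjusted P of 0.027 and an adjusted p of 0.44, and with offsets for GC content and length it was -0.017, so that neither its size nor its sign held over these settings. Atg101 (gene ID 68118) had 39.4, 41.9 and 33.2 CPM against 48.3, 34.4 and 36.5 CPM. Its groups overlapped, with the highest library in the second group and the lowest in the first, and a log2 fold change of 0.06 (SE 0.16).

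Of the membrane and lipid carriers, Atg9a (gene ID 245860), the multi-spanning protein of the seed vesicles, had 76.8, 82.8 and 87.2 CPM against 91.6, 73.5 and 71.7 CPM. The Becn1f/f libraries lay inside the range of the other group, and the log2 fold change was -0.06 (SE 0.14). In the GENCODE annotation of GRCm38, a further transcript on the same strand, Gm29253, shares 31.8% of the exonic bases of Atg9a, and the deposited table has no row for it, so that reads of the former could be counted under the latter. Atg2a (gene ID 329015), a bridge-shaped lipid transfer protein, had 186.3, 118.2 and 110.9 CPM against 171.5, 110.4 and 87.9 CPM. It again was highest in replicate 1 of each group, with means of 138.5 ± 41.6 and 123.3 ± 43.3 CPM (SD, n = 3 each). The log2 fold change of Atg2a was -0.17 (SE 0.25, 95% interval -0.71 to 0.37), and it was 0.11 without Becn1f/f replicate 1 and 0.027 without Becn1f/f;Pf4-iCre replicate 3.

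Atg2b (gene ID 76559), its paralog with the same transfer activity, had 66.8, 71.8 and 80.5 CPM against 75.7, 75.6 and 72.9 CPM. The second group lay inside the range of the first, and the log2 fold change of 0.03 (SE 0.13) had a 95% interval of -0.24 to 0.31. Exons of Gskip on the opposite strand cover 2.85% of the exonic bases of Atg2b, and whether the counting used strand is not given in the sources used here.

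The WIPI genes encode proteins that act after Becn1. Wipi1 (gene ID 52639), the lower of the pair, was supported by 196 to 276 counts a library and had 17.3, 14.4 and 15.1 CPM against 11.7, 13.0 and 15.7 CPM. The overlap came from replicate 3 of the second group, and the log2 fold change was -0.21 (SE 0.17, 95% interval -0.57 to 0.15), or -0.33 to -0.12 with 1 library left out. Wipi2 (gene ID 74781) had 74.5, 64.6 and 63.8 CPM against 69.9, 66.5 and 60.6 CPM. Its range over all libraries was the narrowest of the 10 genes on the FPKM scale, with the highest library at 1.18 times the lowest, and its log2 fold change was -0.04 (SE 0.13, 95% interval -0.33 to 0.24).

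The members differed widely in their spread among libraries of the same genotype. The SD of log2 CPM within genotypes was 0.45 for Atg2a and 0.41 for Ulk1, above 94.9% and 92.9% of the tested genes, and 0.31 for Rb1cc1, above 82.2%. It was 0.098 for Atg2b, 0.10 for Atg13 and 0.11 for Wipi2, above only 9.14%, 11.0% and 14.5% of the tested genes. The median over the 10 members was 0.19, against 0.20 over all tested genes, so that the members as a list were not more variable than other genes. The paralogs Atg2a and Atg2b thus lay near opposite ends of this scale.

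Ulk1 and Atg2a varied together. Relative to its own mean over the 6 libraries, Ulk1 stood at 0.49, -0.17 and -0.18 on the log2 scale in Becn1f/f and at 0.40, -0.06 and -0.47 in the libraries labelled Becn1f/f;Pf4-iCre, and Atg2a at 0.56, -0.10 and -0.19 and at 0.44, -0.19 and -0.52. The root mean square difference between both profiles was 0.073, against a median of 0.39 between Ulk1 and the other 12255 genes tested, and only Slc16a3, a lactate transporter, was closer to Ulk1 (0.072). Scaf4, an RNA-binding protein of transcript ending, came next (0.083). Of the other members, Wipi2 was the nearest to Ulk1, at rank 665, and Atg13, which binds the ULK1 kinase, was at rank 4223 and Ulk2 at rank 9066. These are descriptions over 6 shared libraries, without a test.

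Rb1cc1 followed another profile, with 0.35, -0.32 and -0.26 in Becn1f/f and -0.16, 0.31 and 0.09 in the other group. Its nearest genes were Erbin (0.017), Zfp871 (0.034) and N4bp2l2 (0.047), against a median of 0.33 over all genes, and its nearest member was Ulk2, at rank 2205. The members also differed in the GC content of their transcripts, from 39.1% in Rb1cc1, below which lay only 3.96% of the tested genes, to 60.0% in Atg2a, above 96.1% of them. The 3 genes nearest to Rb1cc1 had 39.6%, 40.0% and 36.1% GC, and Slc16a3 and Scaf4 had 56.6% and 54.7% beside 58.0% in Ulk1. The libraries themselves differed in how counts followed GC content, with a rank correlation over genes of -0.18, 0.34 and 0.30 in Becn1f/f and 0.43, -0.45 and -0.50 in the other group. The neutrophil marker sum was 16700, 11664 and 13514 CPM in Becn1f/f and 9094, 9416 and 12248 CPM in the other group. The part of GC content and of other cells in these shared profiles was not tested.

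**Figure D4:**
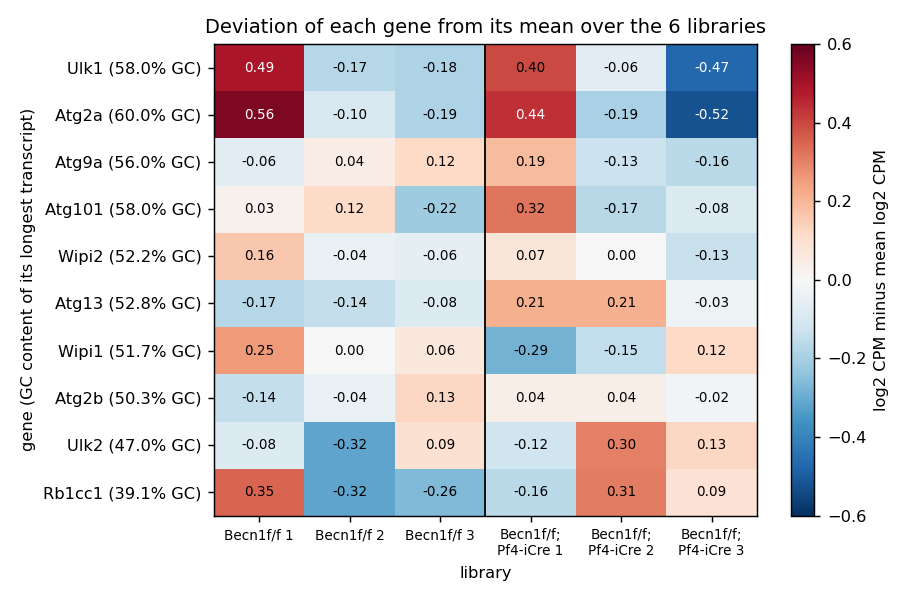
Deviation of each gene's log2 CPM from its mean over the 6 libraries (colour and printed value), with the genotypes split by the black line and the GC content of each gene's longest transcript beside its name. Ulk1 and Atg2a share high values in replicate 1 of both genotypes and a low value in Becn1f/f;Pf4-iCre replicate 3, whereas Rb1cc1 and Ulk2 share a low value in Becn1f/f replicate 2 and a high value in Becn1f/f;Pf4-iCre replicate 2.

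None of the further relatives of the members passed the test. Wdr45b and Wdr45, the other WIPI-family genes, had mean levels of 40.8 and 13.1 FPKM, so that Wdr45b exceeded Wipi1 and Wipi2. Its normalized read count was 96.8, 86.1 and 73.4 CPM in Becn1f/f and 83.7, 70.4 and 66.6 CPM in the other group, which overlap, with a log2 fold change of -0.22 (SE 0.15). Ulk3, a kinase of the same family, had 5.10 FPKM and Atg9b 0.94 FPKM, and Ulk4 and Stk36 were under 1 CPM and were not tested. Of the 4 relatives tested, 0 had an unadjusted P under 0.05 in edgeR, against 6.31% of all tested genes.

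Genes around the members in the pathway gave few calls. Of 22 tested regulators of the ULK1 complex, such as subunits of mTORC1 and AMPK, 2 had an unadjusted P under 0.05, both of them higher, against 6.31% of all tested genes, and none reached 1.5-fold. Deptor, an inhibitor that binds mTOR, had 30.9, 28.4 and 29.7 CPM in Becn1f/f and 41.7, 48.2 and 43.0 CPM in the libraries labelled Becn1f/f;Pf4-iCre. Its groups did not overlap, with a log2 fold change of 0.58 (SE 0.13, adjusted p = 0.21, edgeR), just under the fold threshold. Prkag2, a regulatory subunit of AMPK, had 39.9, 41.2 and 40.1 CPM against 53.0, 52.8 and 49.6 CPM, again without overlap, with a log2 fold change of 0.36 (SE 0.12, adjusted p = 0.55, edgeR). Both genes were picked for an unadjusted P under 0.05, and 10.6% of all tested genes had groups that did not overlap. Over the 22 regulators the median log2 fold change was -0.015, with 9 positive and 13 negative values.

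Elsewhere in the pathway, 0 of 9 partners of ATG9 and ATG2 had an unadjusted P under 0.05 in edgeR, against 6.31% of all tested genes. The count was also 0 of 7 for the class III PI3-kinase, Becn1 included. At that share, 0 in lists this short says little. The median log2 fold changes of these lists were 0.09 and 0.07. Of 16 genes of the conjugation systems and the Atg8 family, 1 rose past both thresholds and 0 fell, against 2.3% of all tested genes called, with a median of -0.06. This gene was Atg4c, a protease of Atg8 proteins, with 12.6, 13.7 and 14.2 CPM against 18.5, 23.4 and 20.9 CPM. Its log2 fold change was 0.63 (SE 0.15), with an adjusted p of 0.28 in edgeR. Of 6 transcription factors of autophagy genes, 1 had an unadjusted P under 0.05, against 6.31% of all tested genes. Mitf, a relative of TFEB, had 16.9, 16.6 and 16.3 CPM against 21.1, 25.3 and 18.2 CPM, with a log2 fold change of 0.38 (SE 0.16, adjusted p = 0.74, edgeR). No gene of these lists had an adjusted p under 0.05.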

How the data were processed

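For 6 libraries labelled as sorted MKs the authors filtered the reads, aligned them using HISAT, and deposited, for each gene, its estimated count together with its FPKM. The submitters' processing notes also name Bowtie2 and GRCm39 (mm39); the counting tool and its use of strand are not given in the sources used here. The deposited estimated counts were rounded. A further 16 per-sample columns, 4 of them of 1 library that matches no sample, were not used. Genes passing edgeR's (4.0.16) expression filter were scaled by TMM and tested with the quasi-likelihood test, with Benjamini-Hochberg adjustment. Calls needed a fold change of at least 1.5 and an unadjusted P under 0.05. CPM values are TMM-scaled, and profiles used log2(CPM + 0.5). Paralog ratios of the deposited FPKM values were compared by exact permutation. Alternatives included DESeq2 (1.42.0), limma (3.58.1), other scalings and filters, GC and length offsets, log2(FPKM + 1 or 0.1) and leaving out each library. GC content, lengths and exon overlaps came from GENCODE for GRCm38, another build than the authors', so the only coordinates given are those of the printed promoters, in GRCm38.p6. Promoter matching was by symbol.

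Members and gene lists were chosen with earlier results of these data known. Named genes were all members, their relatives, Becn1, 3 MK markers, up to 8 genes per pathway list with an unadjusted P under 0.05, and the 3 genes nearest in profile to Ulk1 and Rb1cc1. MK and macrophage markers averaging under 1 CPM were named as well. Library totals lay between 16467560 and 17156728, and a member rests on 196 to 2971 counts a library, which sets its counting error only. The p-values set the genotype difference against the spread between libraries, 3 a group, which edgeR moderates over all tested genes. The labels do not say whether each library came from a separate mouse. Scripts were tested on simulated data, in which the call rule found 21 of 50 genes with a true 1.5-fold change and 48 of 50 with a 2-fold change.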

Additional observations from a re-analysis of the deposited data

How the results depend on the processing

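In every alternative run, 0 of the 10 genes were called at the fold and P thresholds and 0 had an adjusted p under 0.05. The count at an unadjusted P under 0.05 moved from 0 to 1 with GC and length offsets, with and without the replicate block (Atg13), and ranged from 0 to 1 with 1 library left out (Rb1cc1 without Becn1f/f replicate 1, Atg13 without Becn1f/f;Pf4-iCre replicate 3). Of 120 log2 fold changes under the 12 other alternatives, 116 kept their sign, and the 4 that did not were Rb1cc1 (-0.017) and Atg9a (0.0023) with GC and length offsets, and -0.0048 and 0.00013 when the block was added. With 1 library left out, 50 of 60 kept their sign. Without Becn1f/f replicate 1 the values that turned were Ulk1 0.18, Atg2a 0.11, Atg2b -0.020 and Wipi2 0.039, and without replicate 3 of that group Atg101 -0.033. Without Becn1f/f;Pf4-iCre replicate 1 Atg101 was -0.11, and without its replicate 3 Ulk1 was 0.11, Atg9a 0.0073, Atg2a 0.027 and Wipi2 0.014. With each library left out in turn, the values ranged from -0.34 to 0.18 for Ulk1, 0.10 to 0.32 for Ulk2, 0.23 to 0.35 for Atg13, 0.012 to 0.39 for Rb1cc1, -0.11 to 0.15 for Atg101, -0.18 to 0.0073 for Atg9a, -0.48 to 0.11 for Atg2a, -0.020 to 0.11 for Atg2b, -0.33 to -0.12 for Wipi1 and -0.089 to 0.039 for Wipi2, and were -0.63 to -0.071 for the genotype difference of Ulk1/Ulk2, -0.50 to 0.084 for Atg2a/Atg2b and -0.34 to -0.027 for Wipi1/Wipi2. The cause of these changes was not tested.

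Same-numbered libraries deviated with correlations of 0.056, -0.31 and 0.21, so the numbers were not taken as pairs. With the replicate block, 0 of the 10 genes were called, as without it, and 296 genes of the whole table against 282. For the paralog ratios the mean of the same-numbered differences equals the unpaired difference by construction (-0.30 for Ulk1/Ulk2), and the exact permutation p was 0.25 for Ulk1/Ulk2 and for Atg2a/Atg2b, the smallest that 3 pairs can give, and 0.50 for Wipi1/Wipi2. With CPM per kilobase of the longest transcript in place of FPKM, Wipi1 fell from 9.69 to 4.35 and became the lowest in place of Ulk2, Wipi2 moved from 18.1 (rank 4) to 12.9 (rank 6), Rb1cc1 and Atg2b swapped ranks 7 and 8, and Atg101, Atg2a and Atg9a kept ranks 1 to 3.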

Other observations

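The ratio of count to FPKM, which follows the transcript length that the authors' quantification used, stayed between 95.9% and 103.5% of its mean for each member in every library after scaling by the library median, with Atg2b the widest. The summed normalized read count of the 10 genes was 752, 603 and 614 CPM in Becn1f/f and 738, 650 and 575 CPM in the libraries labelled Becn1f/f;Pf4-iCre, highest in replicate 1 of each genotype, as for Ulk1 and Atg2a.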
